A study of Mus musculus with 4 samples.

Results

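Gene expression of liver was read by RNA sequencing in 4 libraries, and 10 genes that make, conjugate, move or sense bile acids were followed here of the 37315 genes in the count tables. They were taken by symbol (Cyp7a1, Cyp8b1, Cyp27a1, Cyp7b1, Slc27a5, Baat, Slc10a1, Abcb11, Nr1h4 and Nr0b2), all 10 were found, and all 10 passed the filter on low counts. The groups were wild type C57BL/6 mice and C57BL/6 mice with a synonymous mutation of Foxo1, both 23 weeks old, with 2 libraries each. The labels do not give the site of the mutation, the sex or feeding of the mice, the hour of sampling, or whether each library came from its own animal, so a p-value here speaks of variation among these libraries, some of which may be technical. Foxo1 encodes a forkhead transcription factor that insulin signalling keeps out of the nucleus. A synonymous change leaves the protein sequence as it was, and whether this one alters the Foxo1 RNA level is not known here. The Foxo1 count therefore cannot check the labels. Foxo1 stood at 44.0 and 54.8 CPM (read counts scaled by library size) in the wild type pair of libraries and at 33.6 and 53.4 CPM in the mutant pair, ranges that overlapped.

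Bile acids are made from cholesterol in hepatocytes. The classic pathway opens with Cyp7a1, its rate-limiting enzyme, and Cyp8b1 then steers the product towards cholic acid. The alternative pathway opens with the mitochondrial enzyme Cyp27a1 and continues with Cyp7b1. Slc27a5 activates bile acids with coenzyme A and Baat joins them to taurine or glycine. Slc10a1 takes them up from portal blood and Abcb11 pumps them into the canaliculus. The receptor Nr1h4 (FXR) senses bile acids and induces Nr0b2 (SHP), a repressor of Cyp7a1 and Cyp8b1, and Cyp7a1 is known to vary with feeding and with the hour of the day.

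Promoters are shown for 3 genes, Cyp8b1 and Nr0b2 because their libraries are set beside those of Cyp7a1, and Abcb11 as an example of a window with a receptor half-site. RefSeq start-site windows (GRCm38.p6, 250 bases before to 50 after the start) were at hand for 6 of the 10 genes, in 7 windows, since Slc10a1 has 2. Capitals mark TATAAA, or the nuclear receptor half-site AGGTCA read on either strand, and letters run 5′ to 3′ on the strand of the gene. The windows are chr9:121916256-121916555 (minus strand) for Cyp8b1, chr4:133553126-133553425 (plus strand) for Nr0b2 and chr2:69342567-69342866 (minus strand) for Abcb11.
Cyp8b1: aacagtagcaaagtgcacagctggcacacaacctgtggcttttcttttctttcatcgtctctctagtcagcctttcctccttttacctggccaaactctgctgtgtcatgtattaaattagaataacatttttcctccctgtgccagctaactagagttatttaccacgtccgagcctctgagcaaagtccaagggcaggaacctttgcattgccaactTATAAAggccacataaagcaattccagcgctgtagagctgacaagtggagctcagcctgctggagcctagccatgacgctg
Nr0b2: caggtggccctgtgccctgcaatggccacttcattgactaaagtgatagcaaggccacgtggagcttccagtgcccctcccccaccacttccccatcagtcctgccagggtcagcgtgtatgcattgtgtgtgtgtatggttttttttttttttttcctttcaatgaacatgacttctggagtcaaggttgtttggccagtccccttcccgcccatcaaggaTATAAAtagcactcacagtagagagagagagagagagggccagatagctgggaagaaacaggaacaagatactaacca
Abcb11: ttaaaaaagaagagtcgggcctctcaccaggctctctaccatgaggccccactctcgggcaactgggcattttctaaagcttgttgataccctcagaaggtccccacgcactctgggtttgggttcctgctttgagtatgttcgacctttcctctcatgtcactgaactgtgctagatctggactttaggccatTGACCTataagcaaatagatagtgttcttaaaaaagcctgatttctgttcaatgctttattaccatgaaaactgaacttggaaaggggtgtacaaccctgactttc
TATAAA was in 3 of the 7 windows, beginning 31 bases before the start in Cyp8b1, 28 bases before it in Nr0b2 and, on the opposite strand, 128 bases before it in 1 window of Slc10a1. Of 32851 mouse windows of this length 13.6% hold these letters on either strand. The half-site was also in 3 of the 7 windows, and 16.3% of all windows hold it. It began 56 bases before the start in Abcb11 and 214 bases before it in Nr1h4, both on the opposite strand, and 87 bases before it in the other window of Slc10a1. The forkhead letters TGTTTAC were in none of the 7 windows and in 3.65% of all. The letters CAAGGTCA, which contain the half-site, were also in none of the 7 windows and in 1.56% of all. Both were searched on both strands as exact letters only, so variants of either site were not counted.

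Total counts ran from 73551737 to 95908652 per library. Hepatocyte markers (10 of 10 detected) summed to 111014 and 117106 CPM in the wild type pair and 104587 and 103014 CPM in the mutant pair, without TMM scaling. Albumin (Alb) alone, with TMM scaling, was at 71504.5 and 80697.5 CPM in the wild type pair and 67932.4 and 64783.1 CPM in the mutant pair. Of the 10 markers 5 were higher and 5 lower on average in the mutant pair, at a median log2 fold change of 0.0013. Cholangiocyte markers summed to 52.4 to 57.5 CPM in the 4 libraries. The 8 ileal enterocyte markers summed to 39.8 and 27.7 CPM in the wild type pair and to 26.7 and 30.6 CPM in the mutant pair, with 3 to 5 of them at 0 in a library. Nearly all of that came from the fatty acid binding protein Fabp2 (1413 to 2481 counts) and the sodium-dependent bile acid carrier Slc10a2 (620 to 873 counts). Fabp6 and Sis were at 0 in all 4 libraries, Fgf15, Cdx2 and Lct at 0 or 1 count, and Vil1 at 4 to 29 counts. The part of other cell types in the results below was not tested. Kupffer cell markers summed to 300 and 304 CPM in the wild type pair and to 444 and 510.2 CPM in the mutant pair, with 0 of 10 markers at 0. In bulk liver fewer cells of a type and less RNA per cell cannot be told apart.

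Mutant was compared with wild type liver to ask whether the genes of bile acid metabolism differed with the Foxo1 mutation. Of the 10 genes, 0 passed an edgeR adjusted p below 0.05, against a background of 0.341% of the 14657 genes tested (50 genes). DESeq2 and limma-voom also called 0 of the 10 at the adjusted threshold, against backgrounds of 0.811% and 0.0478%. With an unadjusted p below 0.05 there were 0 of 10 in edgeR (background 6.19%), 0 in DESeq2 (background 5.01%) and 1, Cyp7b1, in limma-voom (background 5.99%). Values of a pair of libraries are given in the order of replicates 1 and 2. The libraries of the groups overlapped for every one of the 10, while 34.1% of all genes tested had groups that did not overlap. The median log2 fold change was −0.0034 over the 10 genes and −0.0013 over all genes tested, with 4 positive and 6 negative. Leaving out 1 library at a time turned the sign for 7 of the 10, all but Cyp7b1, Slc27a5 and Baat. What separated the members was how far libraries of the same genotype lay apart, which was widest for Cyp7a1 and narrowest for Cyp27a1.

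**Figure D1:**
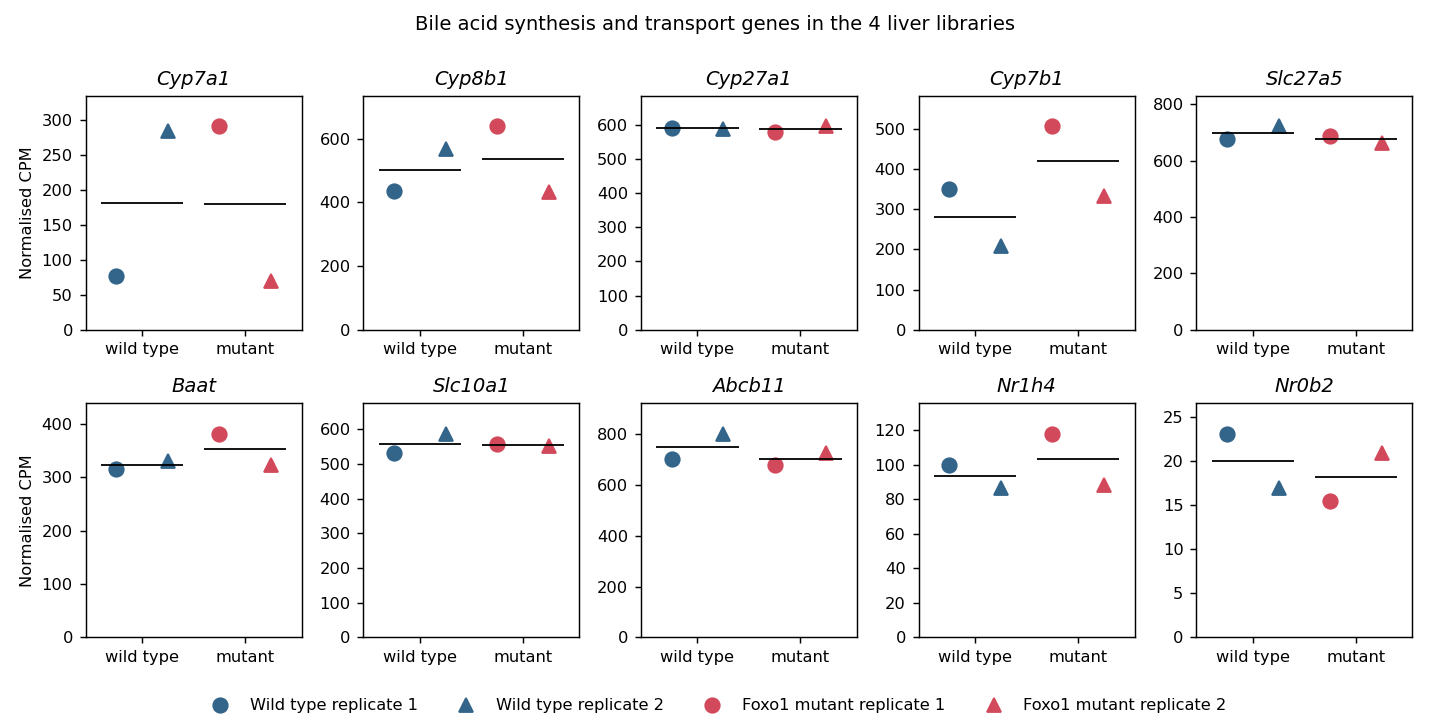
Normalised CPM of each gene in each library (circles, replicate 1; triangles, replicate 2; blue, wild type; red, mutant; black lines, group means; every axis starts at 0). Cyp7a1 ran from 69.5 to 291 CPM with the 2 extremes in the same group, whereas Cyp27a1 stayed between 578 and 596 CPM.

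Cyp7a1 (ENSMUSG00000028240, mm10 chromosome 4, 6265612 to 6275633, minus strand) stood at 77.2 and 284 CPM in wild type replicates 1 and 2 and at 291 and 69.5 CPM in mutant replicates 1 and 2. One library of each genotype was high and the other low, and the high and low values of the 2 genotypes nearly met. The replicates differed 3.68-fold in wild type and 4.19-fold in mutant liver. The lowest library held 5817 reads of Cyp7a1 (counting error 1.31%). The group means were 181 ± 146 and 180 ± 157 CPM (SD, n = 2), and the log2 fold change was −0.0011 (SE 1.29, 95% interval −5.15 to 5.15, edgeR adjusted p = 1.0). Such an interval leaves large differences in either direction undetected. The sign and size followed the libraries kept, at 1.22 or −0.65 when wild type replicate 2 or 1 was left out and at −1.38 or 0.69 when mutant replicate 1 or 2 was. The 2 libraries high in Cyp7a1 had the smallest and the largest total count.

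Cyp8b1 (ENSMUSG00000050445, chromosome 9, 121914356 to 121916305, minus strand), which shares the classic pathway with Cyp7a1, was at 436 and 568 CPM in wild type replicates 1 and 2 and at 640 and 432 CPM in mutant replicates 1 and 2. Its libraries stood in the same order as those of Cyp7a1, mutant replicate 1 first and mutant replicate 2 last, over a narrower span of 1.48-fold. Mutant replicate 1 and wild type replicate 2 were also the highest libraries for Slc27a5, Baat and Slc10a1, over spans of 1.09-, 1.21- and 1.11-fold. The share of all genes with this split was not counted. The log2 fold change was 0.09 (SE 0.24, 95% interval −0.52 to 0.71, edgeR adjusted p = 1.0), and it turned negative without mutant replicate 1 (−0.22) or wild type replicate 1 (−0.08). The level of Cyp8b1 relative to Cyp7a1, each per kilobase of exon, was 12.1 and 4.28 in wild type and 4.70 and 13.3 in mutant libraries. This ratio too crossed the genotypes (two-sided exact permutation p = 0.667, where 2 against 2 allows no p under 0.333).

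In the alternative pathway the first enzyme was steady and the second was not. Cyp27a1 (ENSMUSG00000026170, chromosome 1, 74713574 to 74737892, plus strand) was at 592 and 587 CPM in the wild type pair and 578 and 596 CPM in the mutant pair. The 4 libraries lay within 1.03-fold of each other, and the log2 fold change was −0.0058 (SE 0.10, 95% interval −0.23 to 0.21, edgeR adjusted p = 1.0). Cyp7b1 (ENSMUSG00000039519, chromosome 3, 18071950 to 18243338, minus strand) was at 349 and 210 CPM in wild type replicates 1 and 2 and at 507 and 334 CPM in mutant replicates 1 and 2. Mutant replicate 1 was highest and wild type replicate 2 lowest, and the groups overlapped because wild type replicate 1 lay above mutant replicate 2. With means of 280 ± 98.9 and 421 ± 122 CPM (SD, n = 2), Cyp7b1 had the largest log2 fold change of the 10 genes, 0.59 (SE 0.42, 95% interval −0.86 to 2.03), and it did not pass the test (edgeR adjusted p = 0.997). Its value was lowest, 0.26, without mutant replicate 1, highest, 1.01, without wild type replicate 1, and positive with each library left out. The order of the libraries for Cyp7b1 was not that of Cyp7a1, and the ratio of Cyp7b1 to Cyp7a1 per kilobase was 8.72 and 1.42 in wild type and 3.36 and 9.26 in mutant libraries (exact permutation p = 0.667, two-sided).

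The conjugating enzymes varied little. Slc27a5 (ENSMUSG00000030382, chromosome 7, 12988346 to 12998192, minus strand) was at 677 and 722 CPM in the wild type pair and 689 and 663 CPM in the mutant pair. Baat (ENSMUSG00000039653, chromosome 4, 49489422 to 49506557, minus strand) was at 315 and 330.5 CPM in the wild type pair and at 382 and 323 CPM in the mutant pair, with mutant replicate 1 apart from the other 3 libraries. Their log2 fold changes were −0.05 (SE 0.10, 95% interval −0.27 to 0.17) and 0.13 (SE 0.11, −0.11 to 0.37), and neither passed (edgeR adjusted p = 1.0 and 0.999). The ratio of Baat to Slc27a5 per kilobase was 0.585 and 0.575 in wild type and 0.696 and 0.612 in mutant libraries, higher in both mutant libraries. Its exact permutation p of 0.333 (two-sided) is the smallest that 2 against 2 can give, and it was 0.833 after Benjamini-Hochberg adjustment over the 5 ratios computed.

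Both transporters were measured closely. Slc10a1 (ENSMUSG00000021135, chromosome 12, 80953183 to 80968705, minus strand), the uptake carrier, was at 530.4 and 587 CPM in the wild type pair and at 559 and 552 CPM in the mutant pair, with both mutant libraries between the wild type ones. Its log2 fold change was −0.0090 (SE 0.10, 95% interval −0.24 to 0.22, edgeR adjusted p = 1.0). Abcb11 (ENSMUSG00000027048, chromosome 2, 69238282 to 69342616, minus strand), the canalicular export pump, was at 702 and 803 CPM in the wild type pair and at 678 and 726 CPM in the mutant pair. Its log2 fold change was −0.10 (SE 0.11, 95% interval −0.34 to 0.14, edgeR adjusted p = 1.0). Exons of Gm13613 and Gm13614 on the opposite strand overlap short stretches of the Abcb11 exons, and the kit used keeps no strand information. The ratio of Abcb11 to Slc10a1 per kilobase was 0.565 and 0.584 in wild type and 0.519 and 0.562 in mutant libraries, lower in both mutant libraries, though the nearest values of the groups lay closer together than the libraries of either group (exact permutation p = 0.333, two-sided, 0.833 adjusted over the 5 ratios).

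The bile acid receptor Nr1h4 and the repressor Nr0b2 did not pass the test either. Nr1h4 (ENSMUSG00000047638, chromosome 10, 89454234 to 89533585, minus strand) was at 99.7 and 86.7 CPM in the wild type pair and at 118 and 88.2 CPM in the mutant pair. Its log2 fold change of 0.15 (SE 0.14, 95% interval −0.18 to 0.47, edgeR adjusted p = 1.0) became −0.08 without mutant replicate 1. Nr0b2 (ENSMUSG00000037583, chromosome 4, 133553376 to 133556536, plus strand) was at 23.1 and 16.9 CPM in wild type replicates 1 and 2 and at 15.4 and 20.8 CPM in mutant replicates 1 and 2. Its 2 higher libraries were the 2 that were low in Cyp7a1, and its 2 lower libraries were the 2 that were high in Cyp7a1. Cyp27a1 split in the same way as Nr0b2, over a span of only 1.03-fold. With 4 libraries no correlation was computed. The log2 fold change of Nr0b2 was −0.14 (SE 0.20, 95% interval −0.63 to 0.35, edgeR adjusted p = 1.0), and it was 0.10 with wild type replicate 1 left out and 0.06 with mutant replicate 1 left out. The ratio of Nr0b2 to Nr1h4 per kilobase was 0.470 and 0.397 in wild type and 0.266 and 0.480 in mutant libraries, which overlapped (exact permutation p = 1.0, two-sided).

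**Figure D2:**
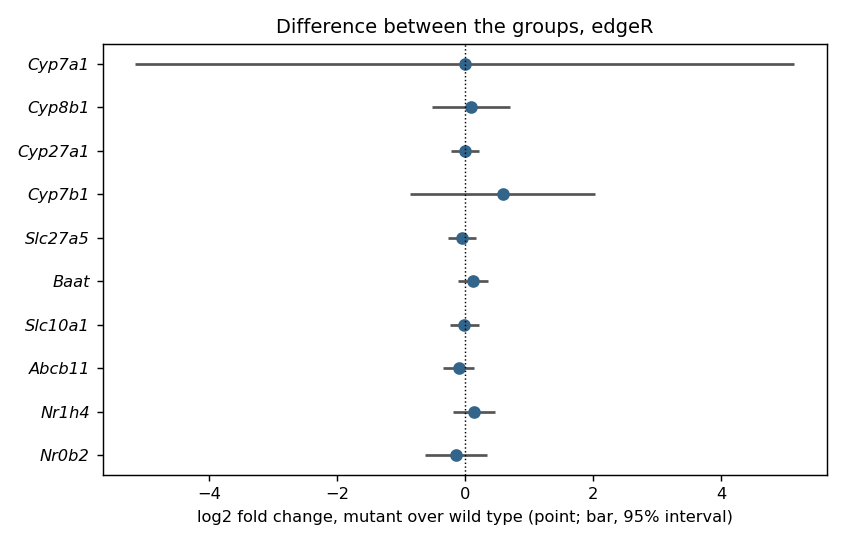
Log2 fold change of mutant over wild type for the 10 genes from the edgeR fit over all genes, with 95% intervals. The intervals of 6 genes stay within 0.5 of 0, those of Cyp8b1 and Nr0b2 within 1, and those of Cyp7a1 (−5.15 to 5.15) and Cyp7b1 (−0.86 to 2.03) reach beyond.

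The precision of these comparisons differed from gene to gene. The 95% interval lay within 0.5 of 0 on the log2 scale for 6 genes, namely Cyp27a1, Slc27a5, Baat, Slc10a1, Abcb11 and Nr1h4, and within 1 of 0 for 8. For Cyp7a1 and Cyp7b1 it did not. The SD of log2 CPM within groups was 1.40 for Cyp7a1, 0.48 for Cyp7b1, 0.34 for Cyp8b1, 0.31 for Nr0b2 and 0.23 for Nr1h4, against a median of 0.14 over all genes tested. For Cyp27a1 it was 0.02, lower than in all but 2.82% of genes tested. Among the 3334 genes whose log2 CPM averaged 5 or more, Cyp7a1 had rank 5 in within-group SD counted from the most variable, Cyp7b1 rank 40, Cyp8b1 rank 101, Nr1h4 rank 200 and Cyp27a1 rank 3159. These ranks describe these 4 libraries and carry no test.

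**Figure D3:**
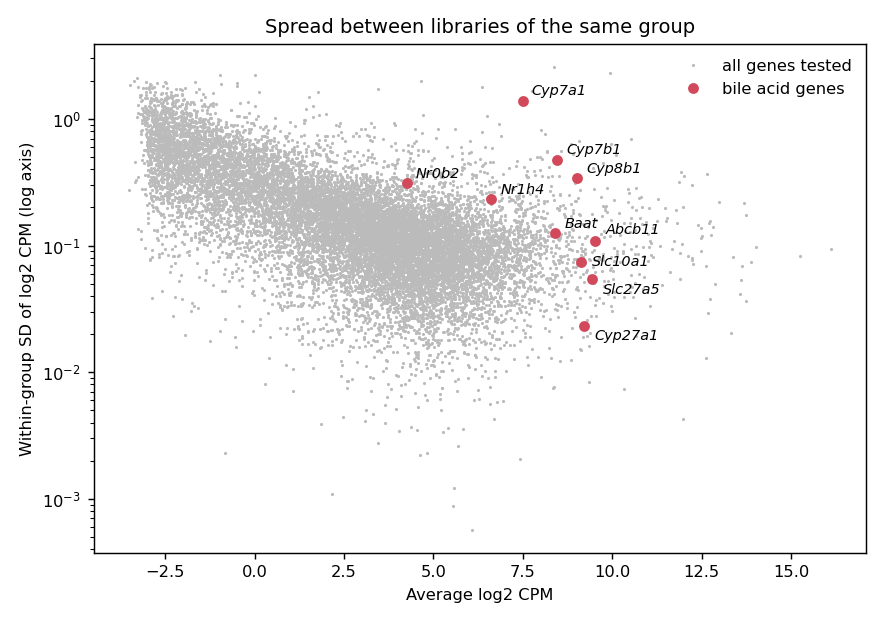
Within-group SD of log2 CPM (vertical log axis) against average log2 CPM for all genes tested (grey) and the 10 bile acid genes (red). Cyp7a1 lies near the upper edge for its expression at 1.40 and Cyp27a1 near the lower edge at 0.02.

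Per kilobase of exon and averaged over the 4 libraries, Slc27a5 was the most abundant of the 10 transcripts, at 282 ± 10.4 CPM per kilobase (SD, n = 4). Cyp27a1 followed at 271 ± 3.62, Cyp8b1 at 266 ± 52.4 and Slc10a1 at 253 ± 10.7 CPM per kilobase, and the ranges of neighbours among these 4 overlapped. Baat at 174 ± 15.5, Cyp7b1 at 162 ± 56.3 and Abcb11 at 141 ± 10.5 CPM per kilobase came next, with overlap between neighbours. The range of Baat lay below that of Slc10a1. Cyp7b1 reached 234 in mutant replicate 1, above the lowest Cyp8b1 value of 222, in mutant replicate 2. Cyp7a1 at 43.2 ± 29.6 and Nr1h4 at 42.6 ± 6.28 CPM per kilobase overlapped, both ranges lying below that of Abcb11. Nr0b2 was lowest, at 16.8 ± 3.10 CPM per kilobase, below Nr1h4 in every library, while Cyp7a1 lay below Nr0b2 in 2 of the 4 libraries. With the length of the longest transcript in place of all exons, Slc10a1 came first at 319 CPM per kilobase, and Nr1h4 at 48.8 came before Cyp7a1 at 43.3. The order of the first 4 and that of Cyp7a1 and Nr1h4 therefore rested on the length chosen.

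**Figure D4:**
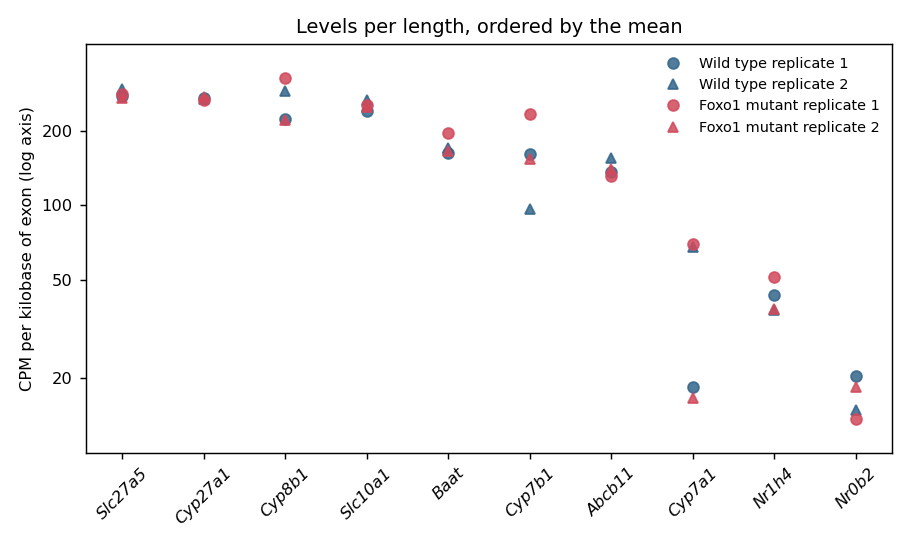
CPM per kilobase of exon (log axis) for the 10 genes in each library, ordered by the mean over 4 libraries. The genes run from Slc27a5 at 282 to Nr0b2 at 16.8, and Cyp7a1 splits into libraries at 68.0 and 69.8 and libraries at 16.7 and 18.5.

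Other genes of the pathway were taken from 4 lists with 61 genes, of which 56 were tested. In edgeR, DESeq2 and limma-voom 0 of them passed the adjusted threshold (backgrounds 0.341%, 0.811% and 0.0478%). The unadjusted edgeR p was below 0.05 for 5 of the 56 (background 6.19%). In DESeq2 it was so for 1 of 14 synthesis enzymes, 3 of 15 transporters, 2 of 19 regulators and 3 of 8 detoxification genes (background 5.01%). In limma-voom the counts of these lists were 1, 2, 2 and 1 (background 5.99%). The groups did not overlap for 16 of the 56 (28.6%, background 34.1%), with the mutant libraries above for 7 and below for 9. Of the 14 other synthesis enzymes tested, 7 were higher and 7 lower on average in the mutant pair, at a median log2 fold change of −0.013. Both mutant libraries lay above both wild type libraries for 1 (7.14%, background 17.0%) and below for 2 (14.3%, background 17.0%). The sterol carrier Scp2 was at 3684 and 2991 CPM in the wild type pair and 4035 and 3432 CPM in the mutant pair. The hydroxysteroid dehydrogenase Akr1c6 was at 966 and 1041 CPM against 1060 and 1056 CPM. Scp2 and Akr1c6 had the highest average CPM of the other synthesis enzymes, not divided by length. Akr1c6 has close paralogs, which makes its count uncertain.

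Among 15 other transporters of bile acids and bile lipids 9 were lower on average in the mutant pair, and the median log2 fold change was −0.10. Both mutant libraries lay below both wild type libraries for 6 of the 15 (40.0%, background 17.0%) and above for 0 (background 17.0%). Abcc3, a basolateral export pump, was at 290 and 237 CPM in the wild type pair and 195 and 218 CPM in the mutant pair (edgeR log2 fold change −0.35 with SE 0.12, adjusted p = 0.494). Abcg2, a canalicular pump, was at 71.7 and 65.3 CPM against 61.2 and 57.6 CPM (−0.21 with SE 0.09, edgeR adjusted p = 0.792). The uptake carrier Slco1b2 and the canalicular pump Abcc2 were the most abundant, with log2 fold changes of 0.06 (SE 0.11) and 0.0038 (SE 0.11). Slc51a was at 0 counts in all 4 libraries, which allows up to 0.0408 CPM, and Slc51b was at 2 to 8 counts.

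Of 19 other regulators, 13 were higher and 6 lower on average in the mutant pair, at a median log2 fold change of 0.02. Both mutant libraries lay above both wild type libraries for 3 of the 19 (15.8%, background 17.0%) and below for 0 (background 17.0%). Foxa2, a forkhead factor of hepatocytes, was at 16.5 and 16.0 CPM in the wild type pair and at 25.3 and 20.9 CPM in the mutant pair, 0.51 higher on the log2 scale (SE 0.12, edgeR adjusted p = 0.141). Among the alternatives run it passed only when no filter on low counts was used (edgeR adjusted p = 0.00108). Prox1, a homeodomain corepressor, was at 107 and 87.6 CPM against 119 and 117 CPM (0.27 with SE 0.11, edgeR adjusted p = 0.663), and Prox1os on the opposite strand overlaps its exons. Hnf4a and Rxra, the regulators of highest average CPM, had log2 fold changes of 0.13 (SE 0.11) and −0.04 (SE 0.13). Among 8 sulfation and detoxification genes the median log2 fold change was 0.02. Both mutant libraries lay above for 3 (37.5%, background 17.0%) and below for 1 (12.5%, background 17.0%). Cyp3a13 was at 183 and 193 CPM in the wild type pair and 231 and 245 CPM in the mutant pair (0.34 with SE 0.10, edgeR adjusted p = 0.330). Cyp3a11 and Ugt2b1, which had the highest average CPM of this list, had log2 fold changes of −0.18 (SE 0.12) and 0.28 (SE 0.13). All 3 belong to families with close paralogs and are uncertain. Kupffer cell markers were higher in both mutant libraries, 300 and 304 against 444 and 510.2 CPM summed, and their part in these values was not tested.

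**Figure D5:**
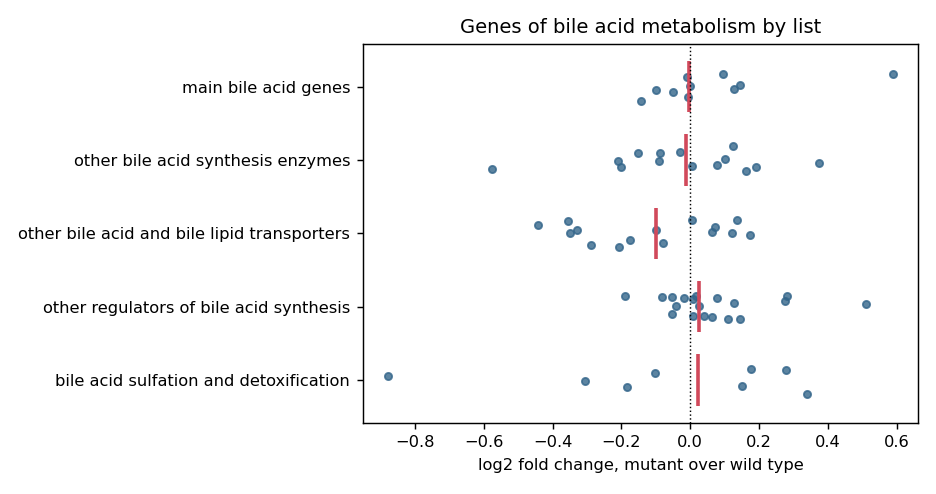
Log2 fold change of mutant over wild type for the tested genes of each list (points, spread vertically at random for legibility; red bars, medians). Medians run from −0.10 for the other transporters to 0.02 for the regulators and the detoxification genes, and 0 genes shown passed the adjusted threshold.

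Expression patterns nearest to that of Cyp7a1 were sought among 8957 genes whose log2 CPM averaged 2 or more, by Euclidean distance of log2 CPM centred over the 4 libraries. Genes with predicted-gene, RIKEN clone or pseudogene names and genes without a symbol had been left out of these. The 5 nearest were Neat1, a nuclear long noncoding RNA (distance 0.86), Thrsp, a lipogenic protein induced by thyroid hormone (0.89), Mup18 (1.04), Nat8f5 (1.05) and Hmgcs1, an enzyme of cholesterol synthesis (1.08). Thrsp was at 58.0 and 126 CPM in the wild type pair and at 100.4 and 45.7 CPM in the mutant pair. Hmgcs1 was at 386 and 629 CPM in the wild type pair and at 788 and 361 CPM in the mutant pair. Both, like Cyp7a1, were higher in wild type replicate 2 and mutant replicate 1 than in the other 2 libraries. Thrsp and Hmgcs1 were chosen for nearness to Cyp7a1 in these libraries, so this likeness follows from the choice. Mup18 and Nat8f5 have close paralogs and are uncertain, and Hmgcs1 exons overlap Gm48342 on the opposite strand.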

How the data were processed

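Liver mRNA of 4 libraries was sequenced with paired reads of 150 bases from about 100 ng of mRNA and a TruSeq RNA kit, per the labels. Raw counts of reads, 1 table per library keyed by Ensembl identifier, were deposited by the authors, made with TopHat2 2.1.1 and HTSeq 0.6.0 on mm10 per the submitters' processing notes. The sources used here do not state the counting mode, strand setting or annotation release. The 37315 rows held no summary rows, and 35449 had a symbol. Coordinates, exon lengths and overlaps come from GENCODE M21 (GRCm38, the build of mm10) and promoters from RefSeq.

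The test was that of edgeR 4.0.16 under R 4.3.3 (filterByExpr with a minimum count of 10, TMM, robust glmQLFit and glmQLFTest, group as the only term) over 14657 genes, with Benjamini-Hochberg adjustment and a threshold of 0.05. Each SE was obtained by dividing the size of the log2 fold change by the square root of F. CPM are scaled by TMM, and floors (3 counts, 0.0313 to 0.0408 CPM) and counting errors cover counting only. Library pairs differed by 61.7 to 106 in chi-square per gene, so none was merged. The pairs with wild type replicate 2 had the largest values, 74.0 with wild type replicate 1 and 106.4 and 105.9 with mutant replicates 1 and 2. The remaining pairs were at 61.7 to 64.3. Alternatives used other scalings, filters, DESeq2 1.42.0, limma-voom 3.58.1, no robust estimation, a replicate block, a threshold of 0.1, each library left out (on the genes tested with all 4) and another exon length. On simulated data of 14657 genes drawn for this comparison, the test found 74.6% of genes changed 2-fold and 35.4% of those changed 1.5-fold, with 5.34% false among its calls. Each simulated gene was given the variability of the trend fitted over all genes at its expression. These rates therefore do not cover genes as variable as Cyp7a1 or Cyp7b1.

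Named were the 10 genes, Foxo1 and the 5 genes nearest to Cyp7a1. From each other list came up to 3 genes with an unadjusted p below 0.05 and the 2 of highest average CPM. Members and lists were chosen with earlier results of these data known.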

Additional observations from a re-analysis of the deposited data

How the results depend on the processing

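The count of genes past the threshold, 50, was 24 with a filter of 1 CPM in 2 libraries, 258 with no filter, 112 with DESeq2, 7 with limma-voom, 8 without robust estimation, and 3 to 17 with 1 library left out (13 and 17 without wild type replicates 1 and 2, 3 and 15 without mutant replicates 1 and 2). The count of bile acid genes past it, 0, was 0 in every alternative run except the replicate block, where it was 1. With the replicate number as a block 111 of all genes passed, and Cyp7b1 was the bile acid gene called (log2 fold change 0.60, edgeR adjusted p = 0.00775, range over its alternatives 0.00775 to 1.0). The samples share only a number, and same-numbered libraries did not deviate together (r of −0.0072 across 14657 genes, which are not independent replicates). For the other pathway genes the count of 0 became 1 with no filter, where Foxa2 passed (0.52), and the cause was not tested.

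Signs turned for several log2 fold changes, among them those of Nr1h4 (0.15), Nr0b2 (−0.14) and Foxo1 (−0.18). The value of Slc27a5, nearer to 0 at −0.05, kept its sign. With 1 library left out at a time, the value ran from −1.38 to 1.22 for Cyp7a1, −0.22 to 0.35 for Cyp8b1, −0.031 to 0.017 for Cyp27a1, −0.080 to 0.066 for Slc10a1, −0.19 to 0.00042 for Abcb11, −0.080 to 0.34 for Nr1h4, −0.38 to 0.10 for Nr0b2, −0.56 to 0.11 for Foxo1, −0.022 to 0.15 for Slco1b2, −0.071 to 0.082 for Abcc2 and −0.25 to 0.14 for Rxra. Cyp7a1 was 0.00039 with RLE scaling, 0.011 with no filter and 0.0033 with the filter of 1 CPM, and Cyp27a1 0.0022 with no filter. With 1 library left out, the single one remaining is taken to vary like the other group. The lowest count of a bile acid gene in a library was 1221, and each group had 2 libraries.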

Other observations

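Further genes of the pathway lists, chosen after their values were seen, differed between libraries of the same group. Slco1a4, an uptake carrier of the organic anion transporting polypeptides, was at 37.2 and 72.3 CPM in the wild type pair and at 67.0 and 48.0 CPM in the mutant pair. Akr1d1, the reductase of the sterol ring in bile acid synthesis, was at 196 and 255 CPM in the wild type pair and at 268 and 216 CPM in the mutant pair. Both were higher in wild type replicate 2 and mutant replicate 1 than in the other 2 libraries. How many of the pathway genes or of all genes share this split was not counted. Cyp2c70, which makes muricholic acids in mice, was at 417 and 263 CPM in the wild type pair and at 420 and 357 CPM in the mutant pair, with wild type replicate 2 lowest, as for Cyp7b1.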
